A study of Mus musculus with 2 samples.

Results

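Imprinted genes of the brain were described in 2 coronal mouse brain sections, as their level per region and their pattern over the tissue. Imprinted genes are expressed mainly or only from the copy inherited from 1 parent, and many of them are active in neurons of the hypothalamus, the region that governs feeding, growth hormone release, body temperature and maternal care. The members were the rows of the expression matrix named Peg3, Ndn, Nnat, Dlk1, Nap1l5, Magel2, Gnas, Snrpn and Meg3. All 9 were found, each once, among 32285 genes, and each had at least 1 UMI in both sections. A UMI (unique molecular identifier) marks a captured RNA molecule so that it is counted once.

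The sections came from 2 adult male ArcCreERT2::eYFPflx mice on a C57BL/6 background. These mice carry a tamoxifen-dependent Cre recombinase driven by the promoter of Arc, an activity-dependent gene, and a Cre-dependent yellow fluorescent protein, and both animals share these alleles. The mouse of the section labelled Trained had learned active place avoidance, in which an animal on a turning arena learns to keep away from a sector that delivers a shock, and the mouse of the section labelled Untrained had been on the same arena with no shock. Both brains were frozen after a memory retention test, and 1 section of each was trimmed to the capture area of a Visium slide, whose barcoded spots record RNA from the tissue above them. A spot covers several cells, so fewer cells of a type and less RNA per cell cannot be told apart in any value below. With 1 mouse per group (n = 1 and n = 1), training, animal, section and library cannot be told apart. All directions between sections hold for the labels as deposited. An exchange of the labels, which would turn every one of these directions, has been raised as a possibility for this series and was not tested here. A shared genetic background leaves no marked alleles, so the parental copy that was expressed was not measured.

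The section labelled Trained held 4152 spots and 29515831 UMIs (median 5950.5 per spot) and the section labelled Untrained held 3738 spots and 59029131 UMIs (median 13766.5). The 3448 spot barcodes that both sections shared are positions of the slide design and not shared cells. Spots were clustered with no imprinted gene among the 943 genes used, and clusters were named from marker genes. The hypothalamus held 286 and 281 spots (Trained and Untrained), the cortex 637 and 653, and the hippocampus 597 and 579. The hypothalamic cluster was led by Oxt, Avp, Irs4, Arhgap36 and Baiap3, and 14 and 15 of 19 hypothalamic markers reached 5 CPM in it, where CPM is the UMIs of a gene per 1000000 UMIs of the region. The summed level of those markers was 11800 and 3904 CPM in the hypothalamus, 361 and 395 CPM in the cortex and 276 and 340 CPM in the hippocampus. Hcrt, the defining marker of the orexin neurons of the lateral hypothalamus, was near 0 in this region at 0.91 and 1.47 CPM. The hypothalamic tissue of the sections was not alike. Oxt, the gene of oxytocin, stood at 7910 CPM in the section labelled Trained and 743 CPM in the section labelled Untrained, and Pmch, the gene of melanin-concentrating hormone, at 3.64 and 54.2 CPM.

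The 9 genes lie on 4 chromosomes of the mouse (GENCODE vM21, GRCm38). Snrpn, Ndn and Magel2 belong to the region of chromosome 7 whose human counterpart is lost in Prader-Willi syndrome. Ndn (7, 62346569 to 62350262, plus strand) and Magel2 (7, 62377010 to 62381640, plus strand) are single-exon genes separated by 26.7 kb, and Snrpn (7, 59982495 to 60140219, minus strand) has 11 exons in its longest transcript. Peg3 (7, 6703892 to 6730431, minus strand) starts 146 bases from Usp29, another imprinted gene that runs the opposite way. Dlk1 (12, 109452823 to 109463336, plus strand) and the non-coding Meg3 (12, 109541001 to 109571726, plus strand) are neighbours 77.7 kb apart. Nnat (2, 157560078 to 157562522, plus strand) lies within Blcap on the opposite strand, Nap1l5 (6, 58905233 to 58907076, minus strand) lies within Herc3 on the opposite strand, and Gnas (2, 174284320 to 174346744, plus strand) overlaps the antisense gene Nespas. Whether the counting used strand was not given in the sources used here, so values of these overlapping pairs may share reads. Gnas makes several transcripts that share their last exons, and the values below do not separate them.

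The DNA just upstream of 4 of the genes is shown because of the patterns described below. Magel2 and Dlk1 had the most similar regional profiles of any 2 members, a likeness that rests largely on the hypothalamus. Peg3 was most like the gene it shares its start region with, and Snrpn was the one member with no call. Each sequence is the RefSeq promoter window (GRCm38.p6) without any base that GENCODE lists as exon, written 5′ to 3′ on the strand of the gene, with CpG dinucleotides, the sites of DNA methylation, in capitals.
Magel2, chr7:62376729-62376978, plus strand: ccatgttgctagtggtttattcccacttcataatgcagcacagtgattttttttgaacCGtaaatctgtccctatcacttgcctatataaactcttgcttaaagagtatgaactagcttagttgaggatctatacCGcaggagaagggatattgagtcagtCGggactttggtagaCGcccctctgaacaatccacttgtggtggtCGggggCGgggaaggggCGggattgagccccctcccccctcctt
Dlk1, chr12:109452573-109452822, plus strand: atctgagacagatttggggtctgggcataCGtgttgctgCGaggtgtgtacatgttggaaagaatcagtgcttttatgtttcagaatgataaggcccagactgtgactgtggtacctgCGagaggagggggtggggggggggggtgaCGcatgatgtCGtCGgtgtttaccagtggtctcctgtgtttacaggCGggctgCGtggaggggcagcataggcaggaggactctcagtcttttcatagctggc
Snrpn, chr7:60005200-60005449, minus strand: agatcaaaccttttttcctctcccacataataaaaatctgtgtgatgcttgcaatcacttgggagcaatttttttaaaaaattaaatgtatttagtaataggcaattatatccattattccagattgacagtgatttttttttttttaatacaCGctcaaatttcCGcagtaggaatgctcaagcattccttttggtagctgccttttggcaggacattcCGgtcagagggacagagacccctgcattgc
Peg3, chr7:6730432-6730577, minus strand, the whole stretch between the starts of Peg3 and Usp29: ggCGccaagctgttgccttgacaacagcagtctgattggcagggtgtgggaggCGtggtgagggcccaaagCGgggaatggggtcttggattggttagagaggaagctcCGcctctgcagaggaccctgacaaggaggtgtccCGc
The first 3 windows of 250 bases held 7, 8 and 3 CpG, against a median of 6 over the 32851 promoter windows of that length. Snrpn has 4 listed start sites, whose windows held 2 to 4 CpG each. The one shown is the most downstream and lies within the gene, in an intron of its longer transcripts. All 9 genes had an entry, with 16 windows in all. The TATA box TATAAA was found on either strand in 7 of these 16 windows, from 5 of the 9 genes (a pair of the Gnas windows overlap), and in 12.4% of all windows. The core motif of the factor YY1, searched as GCCATNTT on both strands, was in none of the 16 windows and in 3.91% of all windows. These are matches of letters and not measurements of methylation or binding, and allele-specific methylation was not measured here.

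The first question was how strongly each gene was concentrated in the hypothalamus. UMIs were summed per section and region, and the hypothalamus was compared with the cortex and with the hippocampus across the 2 mice by edgeR's quasi-likelihood test with section as a block and Benjamini-Hochberg adjustment over 13905 genes. Of the 9 genes, 8 were higher in the hypothalamus than in the cortex, where 18.9% of all tested genes were higher (18.0% of those not used for the clustering). The same 8 were higher than in the hippocampus, where 20.7% of all tested genes were higher (19.6% of those not used for the clustering). The median log2 ratio of all 9 genes, Snrpn included, was 1.95 over cortex and 2.08 over hippocampus, beside medians of 0.00 and -0.02 over all tested genes. Snrpn did not pass the test in either comparison. The members were chosen with results of these data known, so these counts describe the 9 genes and no more.

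**Figure D1:**
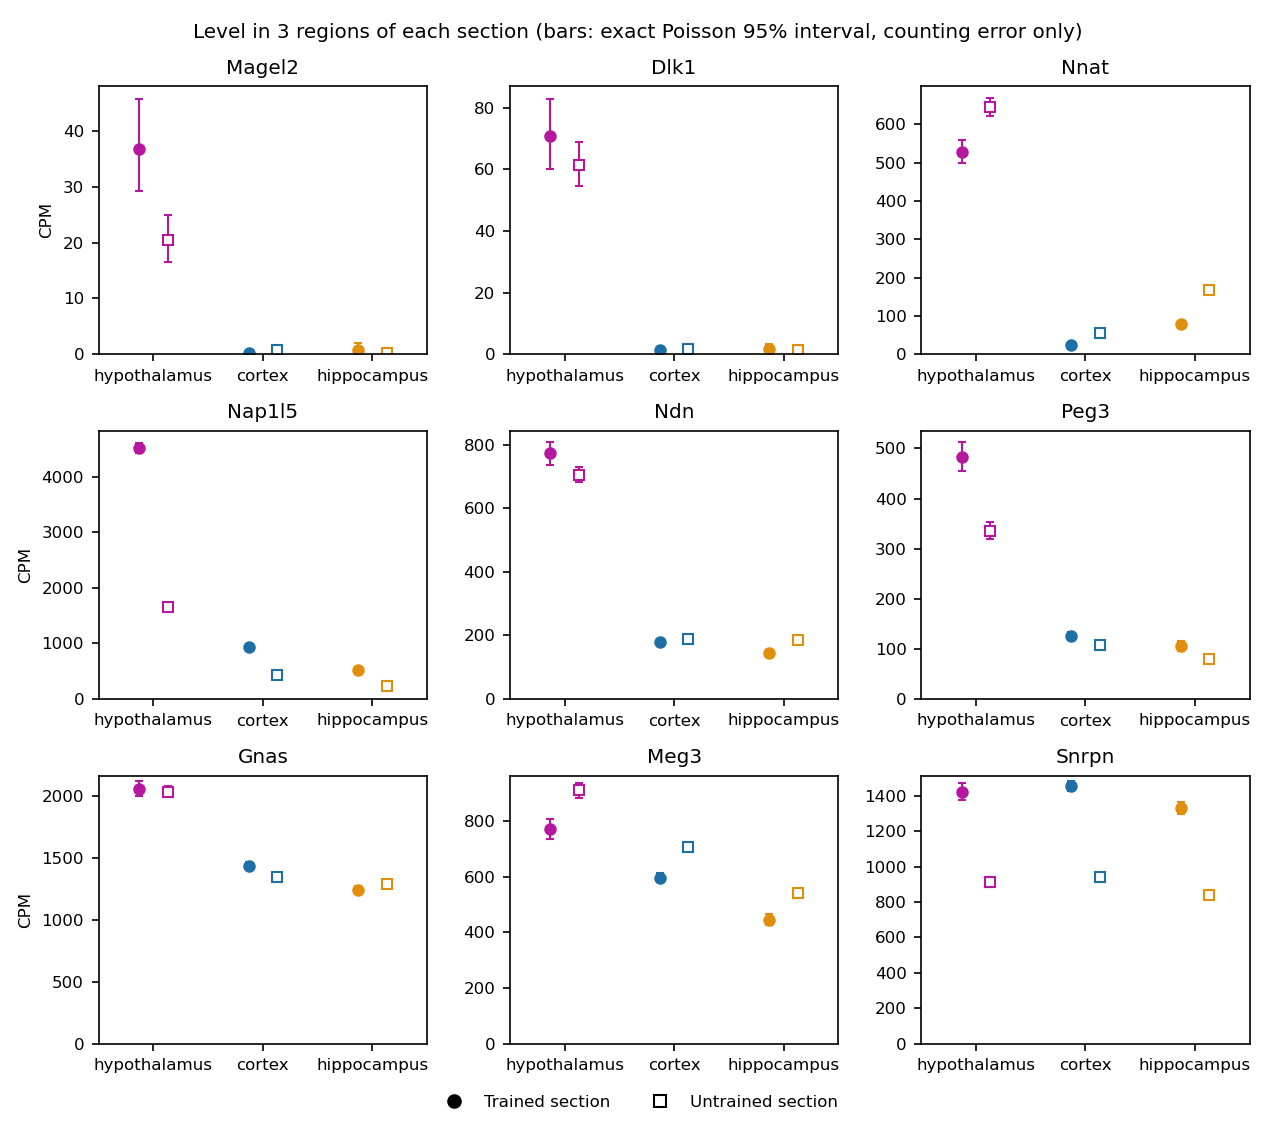
CPM of the 9 genes (y axis, each panel with its own scale from 0) in hypothalamus, cortex and hippocampus of both sections, with filled circles for the section labelled Trained, open squares for the section labelled Untrained and bars for exact Poisson 95% intervals, which cover counting error only. In both sections the hypothalamus is highest for all genes but Snrpn, whose 3 regions lie close together within each section.

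Magel2 and Dlk1 had the largest ratios of the 9 genes in both comparisons. Magel2, a member of the MAGE family that aids ubiquitin ligases in protein trafficking, stood at 36.8 and 20.4 CPM in the hypothalamus of the sections labelled Trained and Untrained (81 and 97 UMIs). In the cortex it was at 0.125 and 0.721 CPM (1 and 9 UMIs) and in the hippocampus at 0.679 and 0.266 CPM (3 and 3 UMIs). The groups of values did not overlap. In the cortex and hippocampus Magel2 was below its level in white matter (0.918 and 3.18 CPM) and had 9 UMIs or fewer per section. The exact size of its ratios is therefore not read. The fitted log2 ratio was 5.68 ± 0.37 (SE, edgeR adjusted p = 7.6e-10) over cortex and 5.91 ± 0.42 (adjusted p = 1.7e-09) over hippocampus. The ratio over cortex is set against only 1 and 9 UMIs there. It was 4.75 (95% interval 3.84 to 5.99) within the section labelled Untrained and 7.63 (5.68 to 13.5) within the section labelled Trained.

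Dlk1 encodes a membrane protein related to the ligands of Notch. It stood at 70.9 and 61.6 CPM in the hypothalamus, 1.38 and 1.68 CPM in the cortex and 1.59 and 1.51 CPM in the hippocampus. The fitted log2 ratio was 5.32 ± 0.19 (SE, edgeR adjusted p = 3.1e-13) over cortex and 5.31 ± 0.20 (SE, adjusted p = 5.0e-13) over hippocampus. Both ratios are set against 7 to 21 UMIs per section, a signal not above that of white matter, and their exact size is not read. The hypothalamus gave 7.45% and 8.06% of all UMIs of the sections, but 52.4% and 40.8% of the Dlk1 UMIs and 56.6% and 48.5% of the Magel2 UMIs. Dlk1 was detected in 37.4% and 54.8% of hypothalamic spots. It was detected in 1.73% and 3.22% of cortical spots, 1.01% and 2.94% of hippocampal spots and 1.03% and 7.86% of white matter spots, a tissue of axons and glia whose median depth was 4069 and 7274.5 UMIs. After thinning spots to 1000 UMIs, which left out 4 and 3 shallower spots of the hypothalamus, 2 and 11 of the hippocampus and none of the cortex and kept 478 and 458 of 485 and 458 white matter spots, the expected share with Dlk1 was 6.94% and 6.58% in the hypothalamus, 0.110% and 0.176% in the cortex, 0.215% and 0.352% in the hippocampus and 0.255% and 0.923% in white matter. At equal depth the cortical and hippocampal shares of Dlk1 were below those of white matter in both sections. White matter is not a known floor. Nap1l5 in the hippocampus was also below it (522 and 238 CPM, beside 670.5 and 472.5 CPM in white matter). Dlk1 in the cortex and hippocampus is therefore only called low, and whether it was background was not tested.

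Nnat was also many times higher in the hypothalamus. It encodes neuronatin, a small membrane protein of the endoplasmic reticulum. Nnat stood at 528 and 644 CPM in the hypothalamus, 24.6 and 56.2 CPM in the cortex and 77.4 and 167 CPM in the hippocampus. The hypothalamus was 14.6-fold higher than the cortex (log2 3.87 ± 0.16 SE, edgeR adjusted p = 1.7e-12) and 4.73-fold higher than the hippocampus (log2 2.24 ± 0.15 SE). Of the 3 regions the cortex had the lowest level of Nnat in both sections.

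Nap1l5, Ndn and Peg3 were present in all 3 regions and several times higher in the hypothalamus. Nap1l5, a relative of the nucleosome assembly proteins, stood at 4520 and 1647 CPM in the hypothalamus, 928 and 432 CPM in the cortex and 522 and 238 CPM in the hippocampus. The ratio was 4.19-fold over cortex (log2 2.07 ± 0.09 SE, edgeR adjusted p = 5.5e-12) and 7.37-fold over hippocampus (log2 2.88 ± 0.10 SE). Nap1l5 differed between the sections as well, yet both values in the hypothalamus were above all 4 values in the cortex and hippocampus.

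Ndn encodes necdin, a MAGE protein of post-mitotic neurons that lies beside Magel2. It stood at 772 and 705 CPM in the hypothalamus, 180 and 189 CPM in the cortex and 144 and 185 CPM in the hippocampus. The ratio was 3.87-fold over cortex (log2 1.95 ± 0.10 SE, edgeR adjusted p = 2.7e-11) and 4.23-fold over hippocampus (log2 2.08 ± 0.10 SE). Peg3, a large zinc finger protein, stood at 483 and 335 CPM in the hypothalamus, 126 and 107 CPM in the cortex and 106 and 79.8 CPM in the hippocampus. Its ratio was 3.34-fold over cortex (log2 1.74 ± 0.09 SE, adjusted p = 4.1e-11) and 4.16-fold over hippocampus (log2 2.06 ± 0.10 SE).

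Gnas and Meg3 were higher in the hypothalamus by smaller steps. Gnas encodes the G protein subunit that couples hormone and transmitter receptors to cyclic AMP. It stood at 2055 and 2032 CPM in the hypothalamus, 1436 and 1340 CPM in the cortex and 1239 and 1284 CPM in the hippocampus, with a log2 ratio of 0.51 ± 0.08 (SE, edgeR adjusted p = 3.6e-05) over cortex and 0.62 ± 0.08 (adjusted p = 3.7e-06) over hippocampus. Meg3, a maternally expressed long non-coding RNA, stood at 770 and 911 CPM in the hypothalamus, 597 and 708 CPM in the cortex and 445 and 543 CPM in the hippocampus. Its log2 ratio was 0.69 ± 0.08 (SE, adjusted p = 9.2e-07) over hippocampus and 0.32 ± 0.08 (SE, adjusted p = 0.0028) over cortex. The second call did not hold at a finer clustering (resolution 2.0), where the ratio was 0.14 (adjusted p = 0.17), or with the Pmch-led cluster added to the hypothalamus, where it was 0.04 (adjusted p = 0.72).

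Snrpn, which encodes the neuronal spliceosome protein SmN, passed the test in neither comparison. It stood at 1422 and 914 CPM in the hypothalamus, 1454 and 940 CPM in the cortex and 1329 and 837 CPM in the hippocampus. The log2 ratio was -0.08 ± 0.08 (SE, edgeR adjusted p = 0.44) over cortex and 0.04 ± 0.08 (SE, adjusted p = 0.73) over hippocampus. Within the sections the ratio over cortex was -0.03 (95% interval -0.09 to 0.02, Trained) and -0.04 (-0.09 to 0.01, Untrained), intervals that cover counting error only. The ratio over hippocampus was 0.10 (0.03 to 0.16, Trained) and 0.13 (0.08 to 0.18, Untrained), small but above 0 in both. Snurf, which lies wholly within Snrpn on the same strand, had 0 UMIs in each of the 3 regions of both sections. How reads shared by such a pair were assigned was not given in the sources used here. The 0 is therefore not read as absence of Snurf RNA. Within the Prader-Willi region of chromosome 7, Snrpn stood beside Magel2 and Ndn, both of which rose, with no call of its own.

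**Figure D2:**
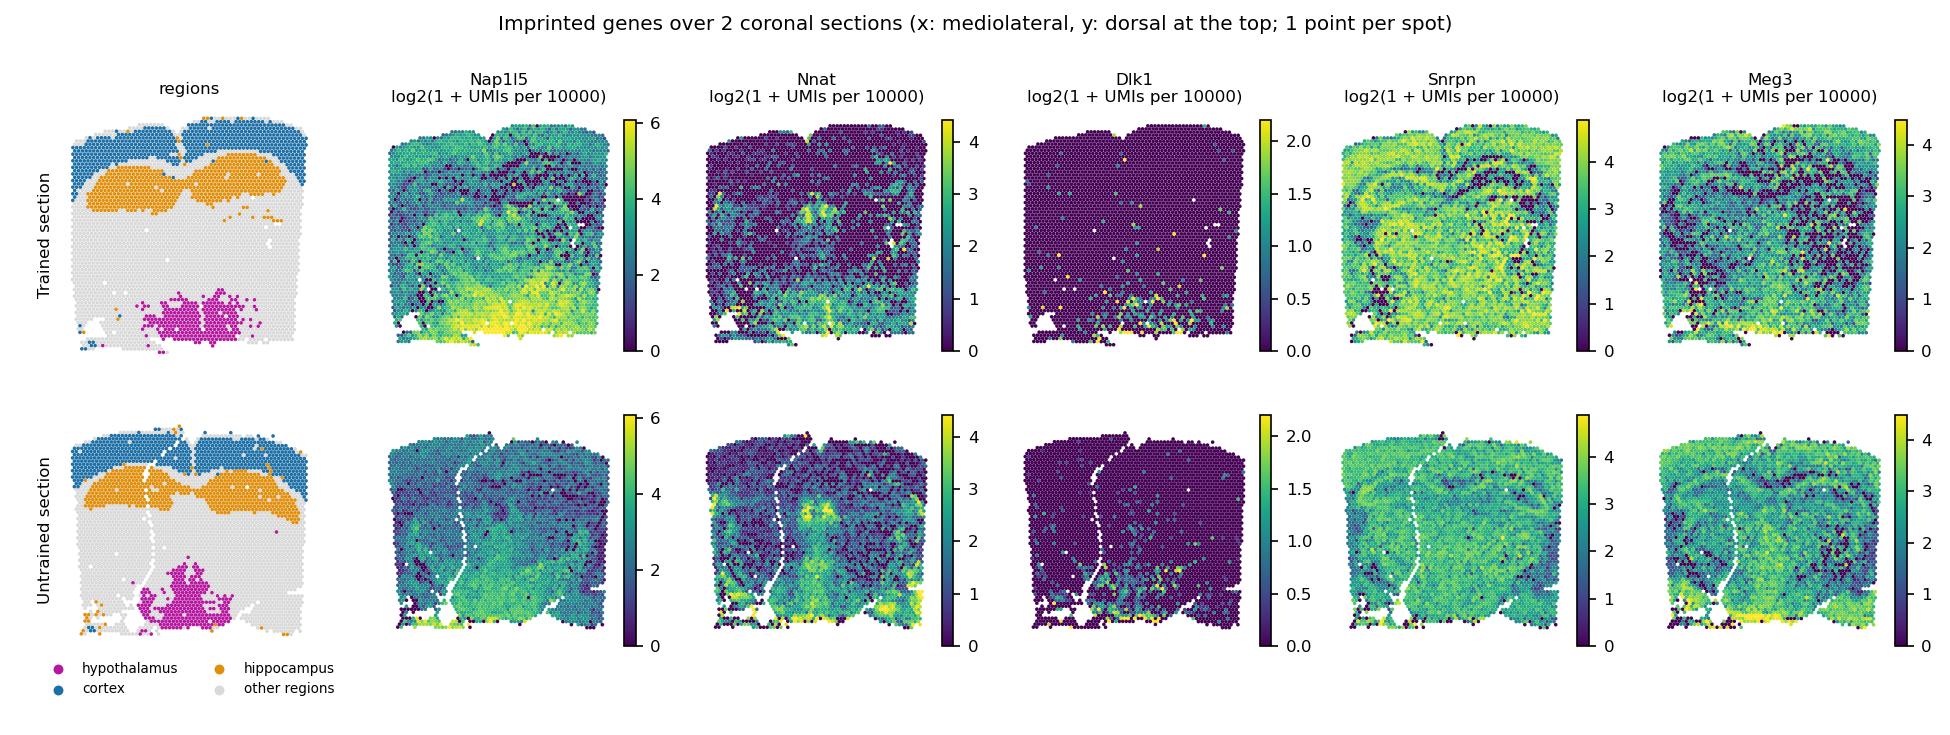
The first column shows the spots of hypothalamus, cortex and hippocampus in colour, with dorsal at the top, and the other columns show Nap1l5, Nnat, Dlk1, Snrpn and Meg3 as log2(1 + UMIs per 10000 UMIs of the spot), with the same colour scale for both sections of a gene. Nap1l5 and Dlk1 are brightest at the base of the section, Nnat also in a paired dorsal patch at the habenula, and Snrpn follows the cell layers of the hippocampus and the cortex.

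The levels were then ordered over 16 regions that held at least 20 spots in both sections, of which 14 were named from markers. Cluster 2 (led by Pmch, Nts and Syt2) and cluster 8 (led by Slc10a4, Slc5a7 and Ecel1) did not meet the naming rule and are given by number. The hypothalamic marker list scored highest for cluster 2, with 12 of its markers at 5 CPM or more. At resolution 2.0 a cluster led by Pmch was named hypothalamus. Hypothalamic spots may therefore lie outside the region named hypothalamus here. Of the 16 ordered regions the hypothalamus was first in both sections for Magel2, Dlk1, Peg3, Ndn and Meg3. For Magel2, Dlk1, Peg3 and Ndn both values in the hypothalamus were above both values in the next region, which was cluster 8 in each case by the mean over both sections. Nap1l5 was highest in the hypothalamus in the section labelled Trained and in cluster 8 in the section labelled Untrained (1702 CPM, beside 1647 CPM in the hypothalamus). Cluster 8 of that section held 55 spots, with a median of 1704 UMIs.

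Nnat was highest in the habenula, a small dorsal nucleus that links the forebrain with the midbrain, at 750 and 856 CPM. The hypothalamus came second, and the choroid plexus, the tissue that makes cerebrospinal fluid, came next at 421 and 453 CPM. Neither pair of neighbours overlapped between the sections. Nnat was lowest in the upper cortex at 15.3 and 50.2 CPM, so that its highest level was 49.1 times and 17.1 times its lowest. Cluster 16, led by Cartpt, held 3 spots in the section labelled Trained and 188 in the section labelled Untrained, and was not ordered. The hypothalamic marker list scored highest for it, but it did not meet the naming rule. In the section labelled Untrained Nnat stood there at 945 CPM, above its 856 CPM in the habenula. Meg3 stood there at 951 CPM, above its 911 CPM in the hypothalamus of that section.

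Within the hippocampus Nnat differed between fields. It stood at 163 and 318 CPM in CA3, the field of pyramidal cells that receives mossy fibres, and at 23.5 and 80.1 CPM in CA1 and 45.7 and 105 CPM in the dentate gyrus (DG). CA3 was above CA1 and DG in both sections. Gnas was also highest in CA3 of these 3 fields, but lowest in DG, with 1737 and 1724 CPM in CA3, 1212 and 1200 CPM in CA1 and 912 and 1069 CPM in DG.

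Gnas was highest in the hypothalamus in the section labelled Untrained and in the reticular thalamus and zona incerta in the section labelled Trained (2192 CPM). Snrpn was highest in CA3 in both sections, at 1732 and 1070 CPM. By the mean over both sections CA1 followed, at 1658 and 1005 CPM. In the section labelled Trained the reticular thalamus and zona incerta lay between them at 1721 CPM. The hypothalamus was number 6 for Snrpn by the mean over both sections. Snrpn levels of neighbouring regions overlapped throughout this order. Meg3 in the hypothalamus (770 and 911 CPM) overlapped that in the upper cortex (756 and 842 CPM) in the same sense, but was higher within each section. Meg3 was lowest in white matter (164 and 253 CPM) and choroid plexus (225 and 189 CPM). Spearman's rho between the sections over the 16 regions ranged from 0.55 for Magel2 to 0.95 for Meg3. These correlations are across regions that share libraries and are a description.

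**Figure D3:**
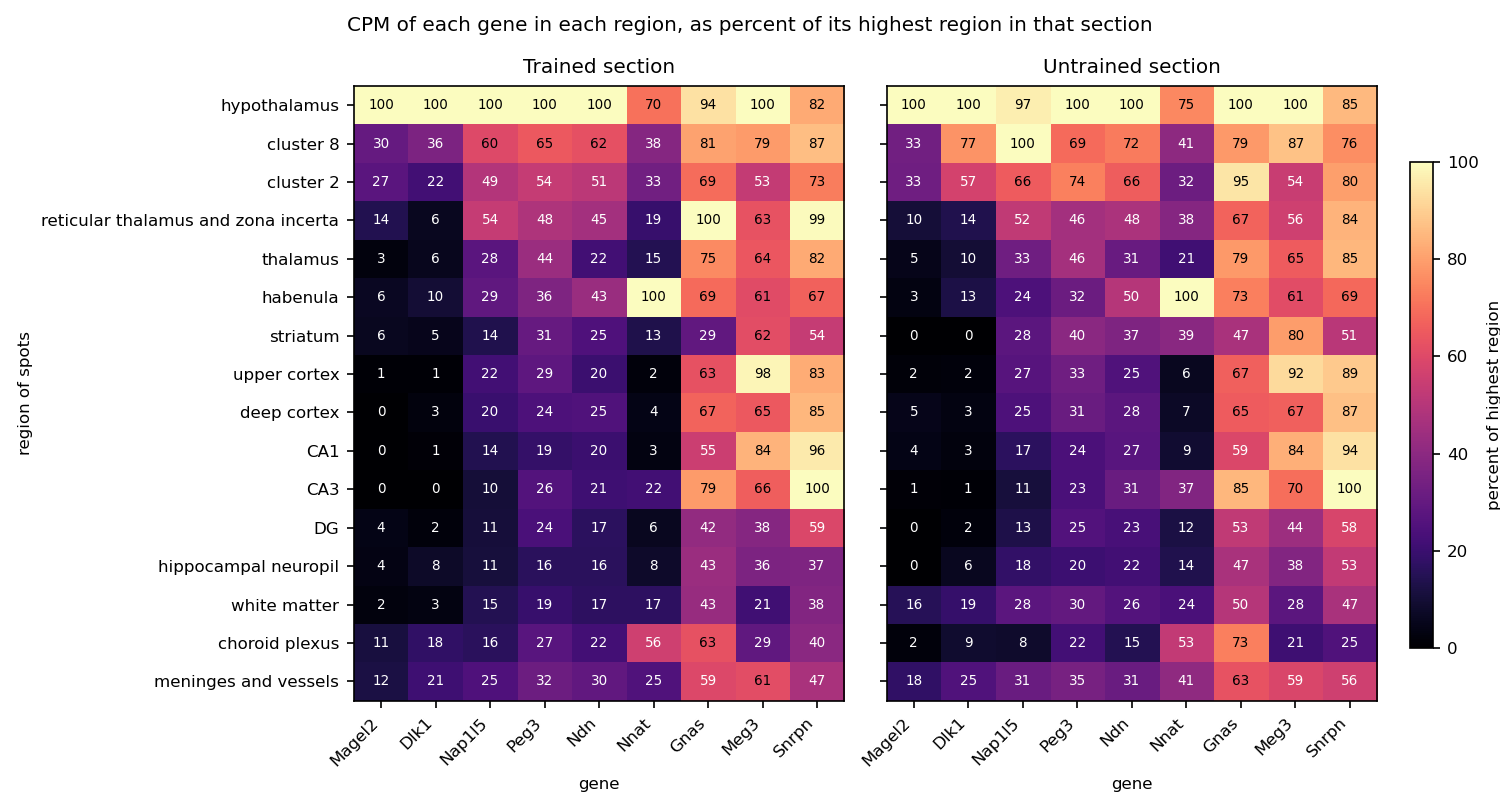
Level of each gene (columns) in 16 regions (rows) as a percent of the CPM of its highest region in that section, for the section labelled Trained (left) and the section labelled Untrained (right). The hypothalamus row is at 100 for Magel2, Dlk1, Peg3, Ndn and Meg3 in both sections, Nnat peaks in the habenula and Snrpn in CA3.

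Profiles over the 14 named regions were compared by Pearson's r of log2(CPM + 10), each region averaged over both sections, among 8994 genes with at least 1000 UMIs. The points share libraries and depth, and these values are a description. Magel2 was most like Dlk1 (r = 0.96), the highest value among the 36 pairs of members, followed by Oxt (r = 0.92) and Gpx3 (r = 0.91). In the other named regions Magel2 had at most 5.31 CPM, less than the 10 added to each CPM. The r values of Magel2 therefore rest largely on the hypothalamus. Dlk1 was most like Gpx3 (r = 0.94), Oxt (r = 0.92) and Ssr4 (r = 0.92), once its partner Magel2, which has fewer than 1000 UMIs, was outside the genes compared. Peg3 was most like Usp29 (r = 0.95), the gene that starts on the other side of the stretch printed above, then B630019K06Rik (r = 0.95) and Ufsp1 (r = 0.92). Usp29 itself stood at 119 and 102 CPM in the hypothalamus, 19.01 and 21.9 CPM in the cortex and 16.1 and 17.8 CPM in the hippocampus.

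Ndn was most like Gprasp2 (r = 0.97), B630019K06Rik (r = 0.96) and Impact (r = 0.95), another imprinted gene. Nap1l5 was most like Resp18 (r = 0.92), Peg3 (r = 0.91) and Inafm1 (r = 0.91). Nnat was most like Pcbd2 (r = 0.91), Mrpl17 (r = 0.89) and Fhl1 (r = 0.86). Gnas was most like Gemin7 (r = 0.90), Tuba1b (r = 0.88) and Hint1 (r = 0.86). Snrpn was most like Kifap3 (r = 0.97), Syp (r = 0.96), the gene of the synaptic vesicle protein synaptophysin, and Rab3a (r = 0.96). Meg3 was most like Rian (r = 0.97), the next non-coding RNA of its cluster 32.2 kb away, then Sae1 (r = 0.93) and Snhg11 (r = 0.93). Dlk1 and Meg3, neighbours on chromosome 12, had an r of 0.13. Ndn and Magel2, neighbours on chromosome 7, had an r of 0.83, and Snrpn had an r of 0.08 with Magel2 and 0.41 with Ndn.

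Levels were also compared inside the hypothalamus. Spots were divided by their distance from the midline in steps of 1 spot, with Oxt and Avp left out of the totals. In the section labelled Trained the levels of Ndn, Nnat, Nap1l5, Gnas and Meg3 were each lower at each step from the midline. In the section labelled Untrained that order was seen for Nnat and Peg3. Nnat had 610, 574 and 417 CPM at under 4, 4 to 8 and 8 or more steps in the section labelled Trained and 724, 581 and 521 CPM in the section labelled Untrained. Peg3 had 512, 453 and 500 CPM and 344, 339 and 314 CPM. Meg3 had 907, 740 and 690 CPM and 942, 955 and 804 CPM. Nap1l5 had 4893, 4585 and 4210 CPM and 1612, 1759 and 1632 CPM, so that its order in the section labelled Trained was not seen in the other. The same held for Ndn (825, 772 and 741 CPM, and 690, 743 and 709 CPM) and Gnas (2239, 2110 and 1876 CPM, and 1996, 2065 and 2091 CPM). Magel2 had 18.4 to 50.6 CPM and Snrpn 855 to 1507 CPM, with no such order in either section. Dlk1 stood at 96.3, 58.6 and 61.3 CPM in the section labelled Trained and at 59.97, 92.6 and 37.8 CPM in the section labelled Untrained, so its order differed between the sections. Oxt and Avp made up 1.55%, 0.80% and 0.12% of UMIs at the same steps in the section labelled Trained and 0.103%, 0.0846% and 0.0112% in the section labelled Untrained. Their part in these orders was not tested.

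Spots in which Oxt and Avp, the neurohypophysial hormones, made up at least 1% of UMIs numbered 49 in the section labelled Trained and 6 in the section labelled Untrained. In the former, Dlk1 stood at 109 CPM in these spots and 65.1 CPM in the other hypothalamic spots (log2 ratio 0.75, 95% interval 0.15 to 1.29 for counting error only). Nnat stood at 736 and 497 CPM (log2 ratio 0.57, 0.35 to 0.77), Peg3 at 571 and 473 CPM (0.28, 0.04 to 0.50), and Snrpn at 1266 and 1463 CPM (-0.21, -0.36 to -0.06). With 8 Dlk1 UMIs in the 6 spots of the section labelled Untrained, the ratio there was 0.06 (-1.25 to 0.97), while Nnat gave -0.03 (-0.37 to 0.28), Peg3 -0.03 (-0.52 to 0.39) and Snrpn 0.09 (-0.18 to 0.34). All 4 of these intervals included 0. Meg3 was lower in the rich spots of that section, at 697 and 918 CPM (-0.39, -0.71 to -0.10), and gave 0.09 (-0.10 to 0.28) in the section labelled Trained. Magel2 had 8 UMIs in the 49 spots, and a difference was not detectable at this depth (-0.58, -1.93 to 0.39).

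The deposited Moran's I scores, in which a higher value means that neighbouring spots have more similar levels, gave a second view of spatial pattern. Nap1l5 had the highest score of the 9 genes in both sections, 0.548 and 0.458, which ranked 9 of 20513 genes in the section labelled Trained and 54 of 21498 in the section labelled Untrained. Nnat followed at 0.401 and 0.455 (ranks 70 and 56). Magel2 had the lowest, 0.124 and 0.091, and also the fewest UMIs (143 and 200 in the whole sections). The genes differ in their UMIs, and their scores were not compared further.

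Other imprinted genes were taken from a list of 50, of which 48 symbols were in the matrix and 40 passed the filter on low counts. Over cortex, 23 of the 40 were higher in the hypothalamus and 4 were lower, where 18.9% of all tested genes were higher and 20.3% were lower, and 13 did not pass the test, with a median log2 ratio of 0.44. Over hippocampus, 21 were higher and 4 were lower, where 20.7% of all tested genes were higher and 22.0% were lower, and 15 did not pass, with a median of 0.56. The largest ratio over cortex was that of Calcr, the calcitonin receptor, which had 47 and 31 UMIs in the hypothalamus and 0 UMIs in the cortex of both sections. Against a floor of 3 UMIs over the cortex of both sections it was at least 76.5-fold higher (edgeR adjusted p = 1.5e-08). Zim1, which lies in the Peg3 cluster, followed at 23.7 and 9.25 CPM in the hypothalamus and 1.25 and 0.721 CPM in the cortex (log2 3.92 ± 0.32 SE, adjusted p = 1.6e-08). Asb4 had a log2 ratio of 3.60 ± 0.59 (SE, adjusted p = 8.3e-05), on 20 and 18 UMIs in the hypothalamus.

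The 3 largest ratios the other way were those of Herc3 (log2 -1.13 ± 0.12 SE, edgeR adjusted p = 3.1e-07), Mest (-0.77 ± 0.20 SE, adjusted p = 0.0042) and Ppp1r9a (-0.64 ± 0.09 SE, adjusted p = 2.0e-05). Herc3, a ubiquitin ligase whose gene contains Nap1l5, stood at 50.5 and 33.2 CPM in the hypothalamus and 98.9 and 75.9 CPM in the cortex, the reverse of Nap1l5. Blcap, whose gene contains Nnat, stood at 139 and 104 CPM in the hypothalamus and 55.4 and 51.4 CPM in the cortex (log2 1.12 ± 0.10 SE, adjusted p = 7.7e-08), so it rose together with Nnat but by a smaller step. Rian, which resembled Meg3 over all regions, stood at 203 and 206 CPM in the hypothalamus and 203 and 167 CPM in the cortex and did not pass the test (log2 0.12 ± 0.09 SE, adjusted p = 0.32).

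**Figure D4:**
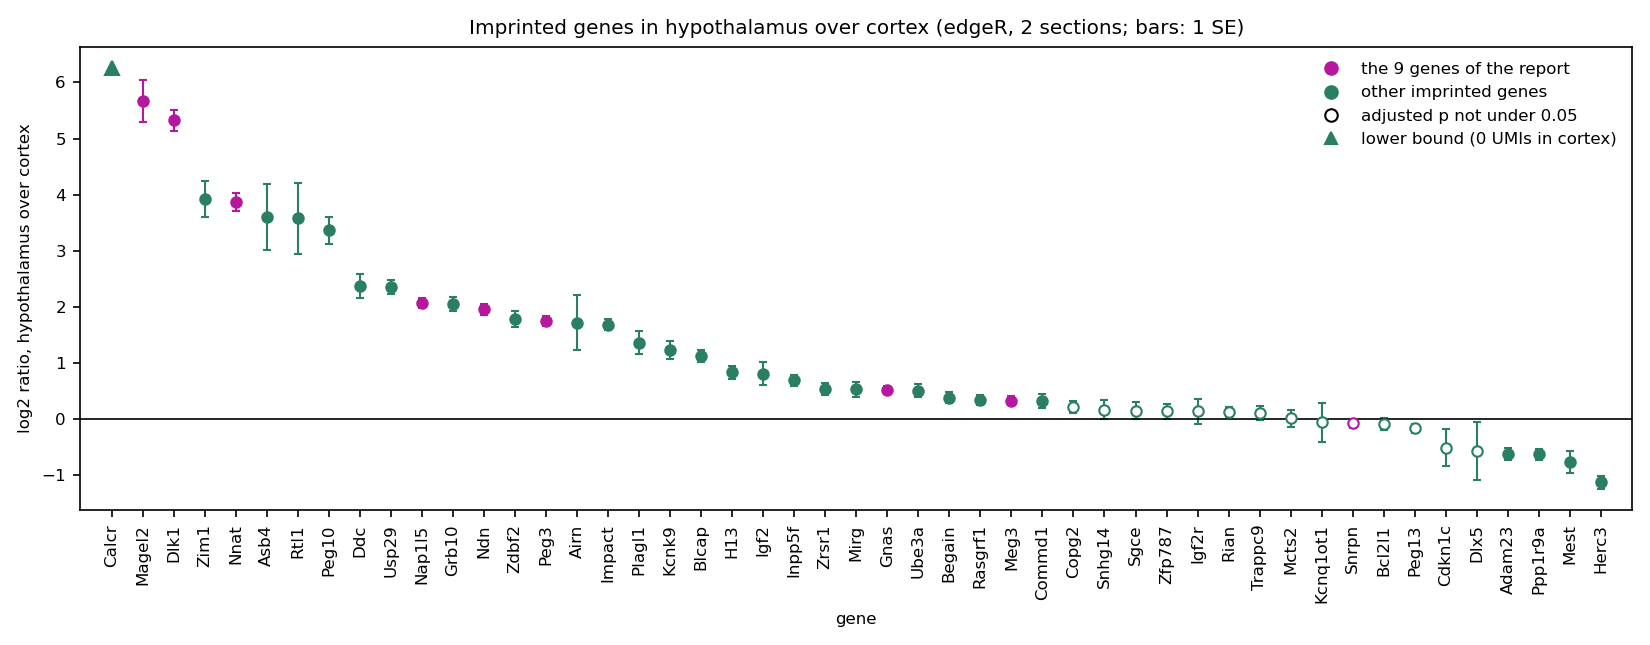
log2 ratio of hypothalamus over cortex (y axis) for the 9 genes and 40 other imprinted genes (x axis, ordered by ratio), with bars of 1 SE from edgeR, open symbols where the adjusted p was not under 0.05, and a triangle for the lower bound of Calcr. Most of both sets lie above 0, with Magel2 and Dlk1 near the top and Snrpn near 0.

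The final comparison was between the sections, within each region. It has no replicate check and no test, and a gene was said to pass where its CPM differed by 1.5-fold or more and it had at least 400 UMIs over both sections. In the hypothalamus 8 of the 9 genes had that many UMIs, and 2 of them were higher in the section labelled Trained, where 8.79% of 2911 genes were higher and 5.74% were lower. In the cortex 7 genes had enough UMIs, of which 2 were higher and 1 was lower, where 5.80% of 6859 genes were higher and 2.16% were lower. In the hippocampus the same 2 of 7 were higher and the same 1 lower, where 8.31% of 5800 genes were higher and 4.0% were lower.

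Nap1l5 was higher in the section labelled Trained in all 3 regions. It was 2.74-fold higher in the hypothalamus of that section (log2 1.46, 95% interval 1.413 to 1.499), 2.15-fold higher in its cortex (log2 1.10, 1.05 to 1.15) and 2.19-fold higher in its hippocampus (log2 1.13, 1.05 to 1.21). Herc3, on the opposite strand, stood at 98.9 and 75.9 CPM in the cortex, 50.5 and 33.2 CPM in the hypothalamus and 96.7 and 61.6 CPM in the hippocampus of the sections, so it was higher in the section labelled Trained in all 3 regions as well. Whether the pair shared reads was not tested. Snrpn was higher by nearly the same step in each region, with log2 ratios of 0.64 (0.57 to 0.70) in the hypothalamus, 0.63 (0.59 to 0.67) in the cortex and 0.67 (0.62 to 0.71) in the hippocampus. Its folds of 1.56, 1.55 and 1.59 were close to the threshold, and in each region at least 1 other setting put it below, with log2 ratios down to 0.39 in the hippocampus (spots thinned to 1000 UMIs) and 0.52 in the cortex (TMM factors).

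Nnat was lower in the section labelled Trained, by 1.19 on the log2 scale in the cortex (24.6 and 56.2 CPM, interval -1.42 to -0.96) and by 1.11 in the hippocampus (77.4 and 167 CPM, interval -1.28 to -0.95). In the hypothalamus its log2 ratio was -0.29 (-0.39 to -0.19), under the threshold, but it was -0.67 and past it with spots thinned to 1000 UMIs. Choroid plexus markers, a tissue in which Nnat is high, moved with it. The 6 markers sum to 352 and 2049 CPM in the cortex, 963 and 4201 CPM in the hippocampus and 1207 and 3153 CPM in the hypothalamus of the sections labelled Trained and Untrained. In the cortex 1 and 4 of the 6 markers reached 5 CPM, and none was at 0 in any region. Their part in the difference of Nnat was not tested.

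The other genes with enough UMIs differed by less than 1.5-fold. Peg3 had log2 ratios of 0.53 (0.41 to 0.64) in the hypothalamus, 0.23 (0.12 to 0.35) in the cortex and 0.41 (0.24 to 0.57) in the hippocampus. Meg3 had ratios of -0.24 (-0.32 to -0.16), -0.25 (-0.30 to -0.19) and -0.29 (-0.36 to -0.22) in the same order. Dlk1 had 0.21 (-0.09 to 0.49) in the hypothalamus, a difference not detectable at this depth. Magel2, with 178 UMIs in the hypothalamus of both sections, was under the minimum and had a ratio of 0.85 (0.41 to 1.29) there. In the cortex, with 1 and 9 UMIs, its ratio was -2.02 (-7.98 to 0.32), and in the hippocampus, with 3 and 3 UMIs, it was 1.35 (-1.55 to 4.25). The Oxt and Pmch levels given above also differed between the hypothalamic regions of the sections, and astrocyte markers summed to 937 and 660 CPM there, 401 and 320 CPM in the cortex and 633 and 414 CPM in the hippocampus. Markers of meninges and vessels summed to 86.4 and 162.5 CPM in the hypothalamus, 91.0 and 141 CPM in the cortex and 77.0 and 122 CPM in the hippocampus. Their part in these ratios was not tested.

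**Figure D5:**
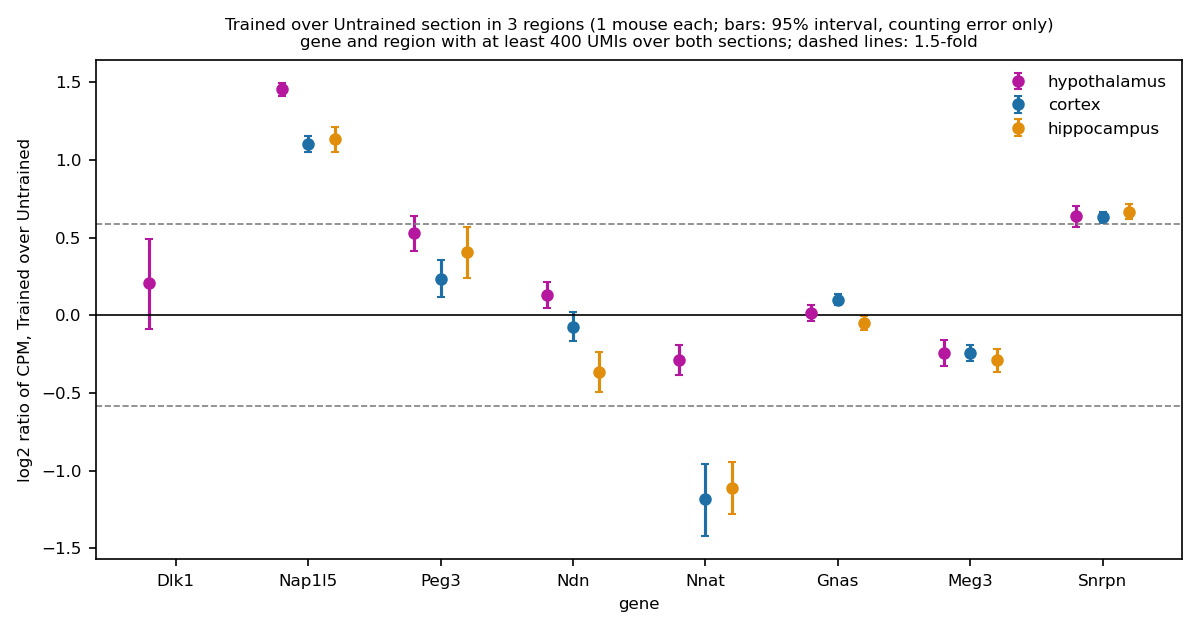
log2 ratio of CPM, section labelled Trained over section labelled Untrained (y axis), for 8 genes (x axis) in hypothalamus, cortex and hippocampus (colours), with bars for 95% intervals that cover counting error only and dashed lines at 1.5-fold. Nap1l5 and Snrpn lie above the upper line in all 3 regions, and Nnat lies below the lower line in cortex and hippocampus and between the lines in the hypothalamus.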

How the data were processed

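UMIs were measured with Visium in 1 section of each of 2 mice. The authors trimmed the reads, aligned them to the 10x mouse reference on mm10 and counted UMIs per gene and spot with Space Ranger 2.0.0, and the deposited counts were used as they stood. The deposited spatial tables also held a score by the authors, Moran's I, and UMI and spot counts per gene, which matched the matrices. Their p-values and the image scale factors were not used.

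Spots under 500 UMIs (194 and 114) were left out of the regions. Spots of both sections were clustered together in scanpy 1.11.5 (30 principal components, 15 neighbours, Leiden resolution 1.5, seed 7) on 943 genes that were among the 3000 most variable in each section, with imprinted, mitochondrial, ribosomal and haemoglobin genes removed, and 19 of 22 clusters were named from markers. The naming thresholds and the minimum of 400 UMIs were set after the data had been seen. No doublet caller was run on spots.

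UMIs were summed over spots, which are not replicates, into 6 libraries (3 regions of 2 sections) and tested with edgeR 4.0.16 with TMM factors, a low-count filter and section as a block. Genes higher or lower at an adjusted p under 0.05 were called. The p-values rest on 2 mice. The test was also run on simulated counts with changes put in, as a check of the code and not of the results above. Levels have exact Poisson, shares exact binomial and ratios exact conditional binomial 95% intervals, and ratios used a pseudocount of 0.5 UMI. These intervals cover counting error only. DESeq2 1.42.0, its size factors, no filter, all named regions in 1 fit, other resolutions, interior spots, thinned spots and other scalings were tried. Gene positions are those of GENCODE vM21 and promoter windows those of RefSeq.

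Described in full were the 9 genes. Of the other imprinted genes the 3 largest called ratios each way over cortex were named, with the genes that overlap a member or were among the 3 most like one. The members and lists were chosen with earlier results of these data known.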

Additional observations from a re-analysis of the deposited data

Results flagged for a closer look

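For Ndn and Gnas the ratio between the sections ran in opposite directions in different regions, each with a counting interval on its own side of 0. With values above 0 meaning higher in the section labelled Trained, the log2 ratio of Ndn was 0.13 in the hypothalamus and -0.36 in the hippocampus. Gnas had 0.10 in the cortex and -0.052 in the hippocampus. The median ratio of all genes compared was 0.05 in the hypothalamus, 0.10 in the cortex and 0.07 in the hippocampus. The value of Gnas in the cortex was thus that of the median gene. With 1 section per group, these differences between regions were not tested. Both values of Ndn kept their sign under every alternative that was run for them, but the value in the hypothalamus was 0.017 with cluster 2 added. The value of Gnas in the cortex was -0.0061 with TMM factors.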

How the results depend on the processing

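Results were recomputed under other normalizations, tests, filters, region outlines and depths. Both counts of genes higher in the hypothalamus stayed between 7 and 8. The lower counts came from Meg3 over cortex, described above, and from spots thinned to 1000 UMIs, where Magel2 did not pass the low-count filter. DESeq2 called 1432 genes higher and 1629 lower over cortex, beside 2633 and 2820 with edgeR, and 1729 and 1803 over hippocampus, beside 2885 and 3058. Thinned spots gave 577 and 637, and 567 and 717, of 8432 genes tested. Within 1 section, with no test, all 8 called genes had ratios above 0 in both comparisons. Adding the Pmch-led cluster 2 was chosen after the data had been seen. The count of genes past 1.5-fold between the sections in the hypothalamus was 1 in place of 2 with mitochondrially encoded genes left out, with interior spots only and with TMM factors, and Nap1l5 was then the gene that remained. It was 3 with spots thinned to 1000 UMIs, where Nnat passed as well. Leaving out mitochondrially encoded genes or using TMM factors lowered each such log2 ratio by a constant, by 0.106 at most (TMM, cortex). No paired analysis was possible because each group has 1 replicate, as far as the labelled Trained and Untrained sections are compared. The regions were compared with section as a block throughout. Depth limits Magel2 and Dlk1 in the cortex and hippocampus, where each had 21 UMIs or fewer per section.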
